A study of Sander lucioperca with 12 samples.

Results

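The whole brain RNA of juvenile pikeperch (Sander lucioperca) was examined for 55 of the 32963 named genes of the count table, those that code for carriers of sugars, monocarboxylates and vitamins. The genes were taken by symbol, as every gene of the solute carrier (Slc) families slc2, slc5, slc16, slc19, slc23, slc27, slc37, slc45 and slc52. Added by name was zgc:110789, which the study calls slc23a4 and lists as higher in piscivores. The slc2 family holds 13 of the 55 genes, slc5 12, slc16 9, slc37 5, slc19 and slc45 4 each, slc23 and slc27 3 each, and slc52 2. Each of the 55 genes has a position in the RefSeq annotation of the assembly SLUC_FBN_1.2, on 20 chromosomes.

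The 12 libraries came from 3 piscivores and 3 planktivores of 2023 and 3 piscivores and 3 planktivores of 2022, 1 library for each wild fish of the same reservoir. Piscivores were seined in the littoral zone, the labels of 2023 adding that they were cannibals, and planktivores were trawled in open water. The gear, the habitat and the body size therefore went with the phenotype, and the sex of the young fish could not be told. All fish were untreated juveniles in the summer of their first year, and the tissue was the whole brain with no separation of its parts. Named genes took 15327406 to 33858794 counts in a library. The labels put the libraries of each year in a batch of their own. The share of counts on 34 ribosomal RNA genes was 0.137% to 0.36% for 2023 but 12% to 21% for 2022. The study also reports that, within each phenotype, the fish of the later year were smaller, with no overlap in length. In comparisons between years, the year, the body size and the handling of the libraries therefore cannot be told apart. Brain parts and other tissues were unevenly present: the pituitary hormone genes summed to 343 to 1755 CPM (counts scaled to a common library total) in 3 libraries of 2023 and to at most 24.4 CPM in the others. The 5 telencephalon genes summed to 53.3 to 127 CPM in piscivores and 13.1 to 20.1 CPM in planktivores of 2023, and to 9.41 to 114 CPM in piscivores and 11.3 to 59.4 CPM in planktivores of 2022, with emx3 at 0 in 1 library.

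The vertebrate brain keeps little fuel of its own and draws on carriers in its capillaries, glia and neurons. Slc2 proteins (GLUT) let hexoses pass down their gradient, whereas Slc5 proteins couple uptake of sugars, inositol, iodide or vitamins to sodium. Slc16 proteins (MCT) move lactate, pyruvate and ketone bodies together with protons, though others of the family carry other substrates. Slc27 proteins bring in long-chain fatty acids, Slc37 proteins include the glucose 6-phosphate translocase, and Slc45 proteins move sugars with protons. Slc19 proteins carry folate and thiamine, Slc23 proteins ascorbate or nucleobases, and Slc52 proteins riboflavin. Teleost fish take up ascorbate from their food.

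In TPM, a unit that takes out the length of a gene and the depth of a library, slc2a1b stood first with 57.2 ± 9.33 TPM (mean ± SD, n = 12 libraries). Its product is the main glucose carrier of brain capillaries and glia in mammals. The gene slc16a6b, a paralog of the carrier that lets the zebrafish liver export ketone bodies, followed with 47.8 ± 14.3 TPM. The fatty acid carrier gene slc27a1a came next with 38.8 ± 5.35 TPM, and 9.51% of its exon bases are shared with a gene on the opposite strand. The neuronal glucose carrier gene slc2a3b had 33.2 ± 13.8 TPM, slc5a5, the sodium/iodide symporter, 31.1 ± 13.3 TPM, and slc45a1, a sugar carrier of neurons, 26.2 ± 3.67 TPM. None of these levels was set apart from its neighbour in the order by more than the range over libraries. The order of these genes is therefore loose, and their ranges over libraries overlapped down the whole list of 55.

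The leading vitamin carrier genes were slc19a1 (reduced folate) at 22.4 ± 5.7 TPM, slc23a2 (ascorbate) at 18.6 ± 3.14 TPM and slc19a3a (thiamine) at 16.1 ± 1.77 TPM. The riboflavin carrier gene slc52a2 reached 4.33 ± 0.765 TPM, while slc23a1, the second ascorbate carrier gene, stayed at 0.297 ± 0.114 TPM. Among the Slc37 genes slc37a3 led with 14.8 ± 2.07 TPM, against 10.6 ± 2.06 TPM for slc37a4b and 0.522 ± 0.165 TPM for slc37a4a, the pair that codes for the glucose 6-phosphate translocase. Of the paralogs for the sodium-coupled myo-inositol carrier, slc5a3b had 10.8 ± 2.75 TPM and slc5a3a 0.528 ± 0.296 TPM. For biotin and pantothenate, slc5a6a had 8.88 ± 2.71 TPM and slc5a6b 3.29 ± 0.573 TPM.

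Of the 55 genes, 36 averaged at least 1 TPM and 16 at least 10 TPM, while 10 had no count in at least 1 library. The slc2 genes gave 26.7% of the summed TPM of the 55 on average, slc16 17.1%, slc27 15.2% and slc5 12%. The share of slc27 averaged 12.8% ± 0.859 in piscivores and 16.1% ± 0.683 in planktivores of 2023, and 15.7% ± 0.469 in piscivores and 16.2% ± 0.585 in planktivores of 2022 (SD, n = 3 each). That of slc5 averaged 13.4% ± 1.94 in piscivores and 10.1% ± 1.24 in planktivores of 2023. In 2022 the slc5 share averaged 14.3% ± 1.28 in piscivores and 10.1% ± 0.974 in planktivores. The gene slc5a5 alone, at 31.1 TPM on average, made up most of the slc5 sum of 58.1 TPM. All 55 genes together summed to 751 to 811 CPM in piscivores and 683 to 727 CPM in planktivores of 2023, and to 760 to 907 CPM in piscivores and 712 to 782 CPM in planktivores of 2022. These sums did not overlap between phenotypes in 2023 but did in 2022.

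**Figure D1:**
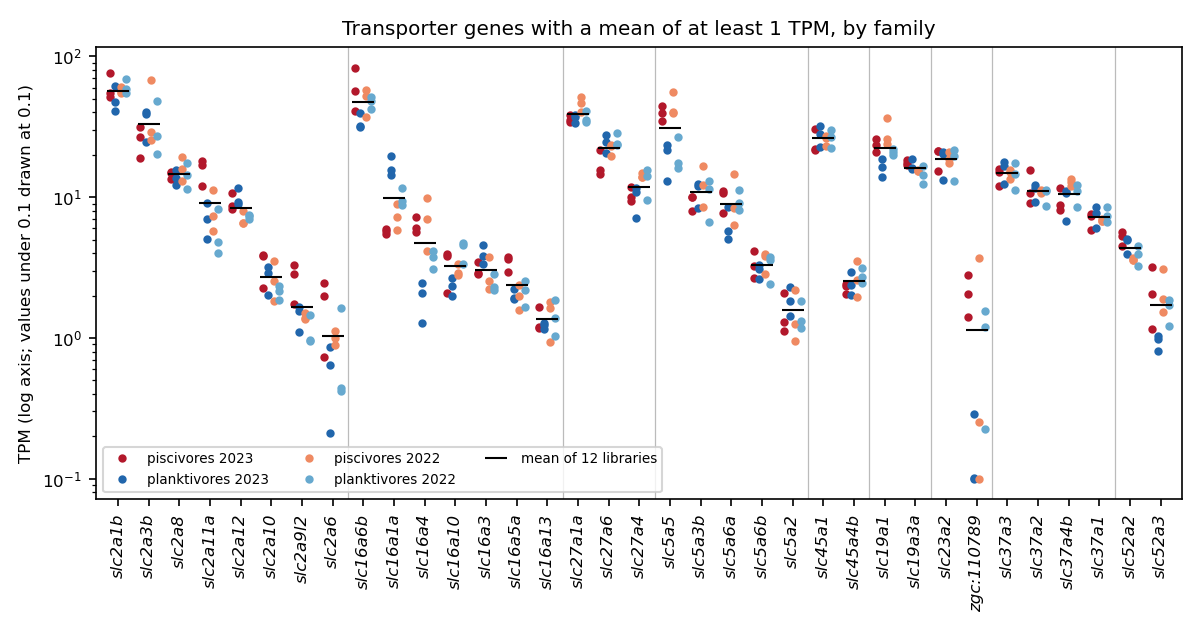
Levels in TPM (log axis) of transporter genes with a mean of at least 1 TPM, 1 of the 36 not shown, ordered by family and by level within a family. Each dot is 1 library, coloured by group, and each bar the mean of 12 libraries, from slc2a1b at 57.2 TPM downwards.

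Some genes were near the limit of counting. The sodium-coupled glucose carrier gene slc5a1, known from gut and kidney, had 16 counts over all 12 libraries, and slc2a2, the glucose carrier of liver and pancreas, 29. A fructose or urate carrier paralog, slc2a9l1, had 7 counts, all in the 3 planktivores of 2023. The monocarboxylate carrier gene slc5a8, known from gut, kidney and neurons in mammals, had 39 counts, and 34 of them came from planktivore 4 of 2023, or 1.41 CPM, against 0 to 0.131 CPM elsewhere. These 4 genes were chosen for mention after their values were seen. In CPM, 3 counts were worth 0.0803 to 0.197 in a library, a limit for counting error alone, so the absence of these transcripts cannot be shown. Of the 55 genes, 46 passed the filter on low counts in at least 1 comparison, 45 of them in that of 2023 and 42 in that of 2022, and only these were tested.

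Phenotypes were compared within each year with the quasi-likelihood F test of edgeR, and the p of each gene was adjusted (Benjamini-Hochberg) for the number of genes in that test. Differential transcription (DT) was called where the adjusted p was below 0.05 and the absolute log2 fold change above 1. Positive log2 fold changes are higher in piscivores. Levels are given below in CPM with TMM factors, which compare a gene between libraries and not genes with each other. In RNA of a whole brain, fewer cells of a type and less RNA per cell cannot be told apart.

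In 2023, the monocarboxylate carrier gene slc16a1a was the 1 DT gene among 45 tested, where 0.168% of all 21386 genes tested were DT. Its product, MCT1, carries lactate and ketone bodies across capillaries and glia, and in mammals also across the membrane of red blood cells. It lies at chr6:11209182-11219235 of SLUC_FBN_1.2, and none of its exon bases is shared with another gene. The 3 piscivores had 7.04, 8.33 and 7.29 CPM of slc16a1a, and the 3 planktivores 23.2, 23.8 and 17.4 CPM. All piscivores thus stood below all planktivores, with means of 7.55 ± 0.683 CPM and 21.5 ± 3.54 CPM (SD, n = 3 each). The log2 fold change was -1.49 ± 0.16 (SE), or 2.81-fold lower in piscivores, with an adjusted p = 0.0416 in edgeR. The adjusted p ranged from 4.65e-11 in DESeq2 to 0.0527 in 1 fit to all 12 libraries. It lay between 0.0565 and 0.121 when any 1 library was left out, so that the gene was DT in none of these 6 fits although its fold change stayed between -1.61 and -1.40.

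In 2022 slc16a1a had 8.91, 12.7 and 7.88 CPM in piscivores and 17.7, 11.3 and 11 CPM in planktivores. The groups overlapped, and its log2 fold change was -0.42 ± 0.25 with an adjusted p = 0.786. The difference between the years in this contrast, 2023 less 2022, was -1.08 ± 0.32 on the log2 scale, with an adjusted p = 0.567.

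All 7 red blood cell markers tested had negative log2 fold changes in 2023, as did slc16a1a. In 2022, 3 of the 7 were higher and 4 lower in piscivores. The 7 of 8 erythrocyte genes present in the table (alas2, slc4a1a, gata1a, kel, nt5c2l1, rhag, klf1) summed to 145 to 280 CPM in piscivores and 279 to 659 CPM in planktivores of 2023, and to 77.4 to 211 CPM in piscivores and 68.4 to 155 CPM in planktivores of 2022. None of the 7 was at 0 in any library. Piscivore 4 and planktivore 5 of 2023 had sums of 280 and 279 CPM, at 7.29 and 23.8 CPM of slc16a1a. In the same order these libraries had 3.59 and 12.8 CPM of kel and 6.89 and 18.8 CPM of nt5c2l1. The genes alas2, which gave 50.2% of the sum on average, slc4a1a, gata1a, rhag and klf1 were instead higher in piscivore 4. In 2023, 2 of the 7 erythrocyte genes were DT and lower in piscivores, and in 2022 none was. Of all genes, 0.168% were DT in 2023 and 0.0533% in 2022. The study itself lists slc4a1a as higher in planktivores of 2023, so the list was not independent of these data. Skeletal muscle genes, of which 4 of 7 were in the table, summed to 3.13 to 10 CPM in piscivores and 4.82 to 45.7 CPM in planktivores of 2023, and to 4.2 to 9.3 CPM in piscivores and 37 to 48.1 CPM in planktivores of 2022, with none of the 4 at 0. The part of blood or muscle in the level of slc16a1a was not tested.

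Several other genes of the family had positive log2 fold changes in 2023. The orphan carrier gene slc16a4 had 14, 12.2 and 11.3 CPM in piscivores and 4.72, 4.51 and 2.34 CPM in planktivores. The groups did not overlap, and the log2 fold change of slc16a4 was 1.72 ± 0.27 with an adjusted p = 0.0806 in edgeR, so the gene was not DT. It was DT in DESeq2, with an adjusted p = 1.32e-06, where 1.4% of all genes were DT. For slc16a5a (MCT6) piscivores had 5.81, 5.15 and 5.46 CPM and planktivores 3.48, 3.27 and 2.77 CPM, again without overlap, with a log2 fold change of 0.81 ± 0.18 and an adjusted p = 0.149. The abundant slc16a6b had a log2 fold change of 0.80 ± 0.24 (adjusted p = 0.231), with 63.8, 51.6 and 90.6 CPM in piscivores and 51.8, 34.6 and 34.1 CPM in planktivores. The lactate exporter gene slc16a3 (MCT4) had -0.31 ± 0.20 (adjusted p = 0.544).

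The iodide carrier gene slc5a5, which supplies the thyroid and is also known from choroid plexus in mammals, had 54, 53.7 and 41 CPM in piscivores and 33, 25 and 15.1 CPM in planktivores of 2023. All piscivores stood above all planktivores, and the log2 fold change of slc5a5 was 1.05 ± 0.27 with an adjusted p = 0.172 in edgeR and 0.00893 in DESeq2. Within the same family the inositol carrier gene slc5a11 was measured the other way round, at 0.536, 0.509 and 0.459 CPM in piscivores and 1.53, 0.853 and 1.19 CPM in planktivores. Its log2 fold change was -1.21 ± 0.35 with an adjusted p = 0.212. Its relative slc5a3a had 1.71, 1.46 and 0.833 CPM in piscivores and 0.622, 0.44 and 0.462 CPM in planktivores, with a log2 fold change of 1.42 ± 0.38 and an adjusted p = 0.193. The more abundant slc5a3b had -0.17 ± 0.17 (adjusted p = 0.693), so the inositol carriers did not share a direction.

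Among the glucose carriers, slc2a11a had 19.1, 20.2 and 12.3 CPM in piscivores and 11.2, 7.04 and 5.12 CPM in planktivores of 2023. The groups of slc2a11a did not overlap, and its log2 fold change of 1.17 ± 0.31 had an adjusted p = 0.18 in edgeR and 0.0125 in DESeq2. The main carriers of capillaries and neurons had fold changes nearer to 0. The log2 fold change of slc2a1b was 0.33 ± 0.16 (adjusted p = 0.413) and that of slc2a3b -0.37 ± 0.21 (adjusted p = 0.489). Blood vessel markers, of which 8 of 11 were in the table, summed to 156 to 180 CPM in piscivores and 132 to 185 CPM in planktivores, with plvapb at 0 in at least 1 library of the 12. The gene cldn5a gave 47.9% of this sum. Without it the others summed to 76.5 to 98.4 CPM in piscivores and 64.5 to 77.1 CPM in planktivores of 2023. Of the 8, 6 were higher and 2 lower in piscivores. At an unadjusted p below 0.05, 2 were higher and 0 lower, beside 8.9% and 4.78% of all genes. Groups did not overlap in 1 that was higher and 2 that were lower, beside 10% and 10.3% of all genes. The part of blood vessels in these levels was not tested.

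The largest fold change of 2023 belonged to zgc:110789, a relative of the ascorbate carriers whose rat counterpart Slc23a4 moves nucleobases. This gene was added by name and not by symbol, and the study lists it as higher in piscivores. Its difference in 2023 was therefore not independent of its choice. It had 3.91, 3.24 and 1.9 CPM in piscivores and 0.166, 0.385 and 0.0661 CPM in planktivores, from 263 counts in piscivores and 20 in planktivores. The log2 fold change of zgc:110789 was 3.82 ± 0.57 with an adjusted p = 0.0737 in edgeR. It was DT in 2 of 5 alternatives, DESeq2 (adjusted p = 8.83e-08) and no filter on low counts (adjusted p = 0.0317). The highest adjusted p of the 5 was 0.259. When any 1 library was left out it was 0.0894 to 0.2, so the gene was DT in none of those 6 fits. In 2022 the gene split the piscivores themselves, at 5.05, 0 and 0.368 CPM, against 0.377, 2.16 and 1.53 CPM in planktivores, and its log2 fold change was 0.38 ± 1.44 with an adjusted p = 0.977.

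The retinal pigment epithelium gene rpe65a, the leading one among the retina and pineal markers, was DT in 2023 (3.42 ± 0.38, adjusted p = 0.0416). In the same order of libraries as above, rpe65a had 15.5, 15.3 and 9.02 CPM in piscivores and 0.746, 1.87 and 1.06 CPM in planktivores of 2023, and 13, 0.28 and 2.73 CPM in piscivores and 0.377, 6.42 and 5.72 CPM in planktivores of 2022. The 5 of 7 retina and pineal genes in the table summed to 11.5 to 25.9 CPM in piscivores and 1.24 to 2.64 CPM in planktivores of 2023, and to 0.504 to 20.2 CPM in piscivores and 0.989 to 7.53 CPM in planktivores of 2022. The gene rpe65a gave 70.4% of this sum. Without it the others summed to 0.381 to 10.5 CPM in piscivores and 0.248 to 1.59 CPM in planktivores of 2023, and to 0.224 to 7.27 CPM in piscivores and 0.575 to 1.11 CPM in planktivores of 2022, so that the phenotypes overlapped in both years. Of these 5 genes gnat1, gnat2, aanat2 and crx were at 0 in at least 1 library. The part of such tissue in the level of zgc:110789 was not tested.

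Telencephalon markers also went with the phenotype in 2023. The study itself names every gene of this list as higher in piscivores, so the list was not independent of these data. The shared direction of these genes was therefore not a separate finding. All 5 were higher in piscivores at an unadjusted p below 0.05, beside 8.9% of all genes, with a median log2 fold change of 3.19. The groups overlapped in none of them, beside 10% of all genes that were higher without overlap. Of the 5, edgeR called 1 DT and DESeq2 5, where they called 0.168% and 1.4% of all genes. In 2022 none of the 5 passed an unadjusted p of 0.05, beside 4.3% of all genes that were higher and 2.95% lower. The part of the telencephalon in the transporter differences of 2023 was not tested.

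No vitamin carrier gene of known role in the brain was DT in 2023. The folate carrier gene slc19a1 had 30.4, 27.5 and 26.6 CPM in piscivores and 22.5, 20.9 and 15.6 CPM in planktivores of 2023, without overlap, and a log2 fold change of 0.54 ± 0.15 with an adjusted p = 0.209. The thiamine carrier gene slc19a3a had 0.10 ± 0.13 (adjusted p = 0.791) and the ascorbate carrier gene slc23a2 0.12 ± 0.15 (adjusted p = 0.78). For biotin and pantothenate, slc5a6a had 15.7, 12.7 and 15.7 CPM in piscivores and 8.62, 11.9 and 8.06 CPM in planktivores, a log2 fold change of 0.65 ± 0.19 (adjusted p = 0.217), and slc5a6b 0.18 ± 0.17 (adjusted p = 0.681). The riboflavin carrier gene slc52a3 had 3.67, 2.67 and 1.29 CPM in piscivores and 1.33, 1.13 and 0.892 CPM in planktivores, a log2 fold change of 1.21 ± 0.41 (adjusted p = 0.269), and slc52a2 0.18 ± 0.18 (adjusted p = 0.712).

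Fatty acid and glucose 6-phosphate carriers were not DT either. The log2 fold change of slc27a1a was 0.02 ± 0.11 and that of slc27a4 0.11 ± 0.15, with adjusted p-values of 0.95 and 0.794. The third Slc27 gene, slc27a6, which was named after its values were seen, had 18.3, 22.1 and 26.5 CPM in piscivores and 30.2, 33.4 and 29.9 CPM in planktivores, without overlap, and -0.46 ± 0.15 (adjusted p = 0.266). The log2 fold changes of slc37a3 and slc37a4b were -0.09 ± 0.12 and 0.04 ± 0.19, and that of slc45a1, with 10.4% of its exon bases shared with a gene on the opposite strand, was -0.13 ± 0.15. In 2023 as a whole, 29 of 45 transporter genes were higher and 16 lower in piscivores, with a median log2 fold change of 0.13, beside a median of 0.00 over all genes tested. An unadjusted p below 0.05 was reached by 12 genes that were higher and 3 that were lower, beside 8.9% and 4.78% of all genes. DESeq2 called 4 higher, zgc:110789 among them, and 1 lower, where it called 1.4% of all genes. The study used DESeq2 with the same thresholds on these libraries. It lists slc16a4, slc5a5 and slc2a11a as higher in piscivores and slc16a1a as higher in planktivores. Groups did not overlap in 9 genes that were higher and 5 that were lower in piscivores, beside 10% and 10.3% of all genes. The gene zgc:110789, added by name, is part of each of these counts of higher genes.

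**Figure D2:**
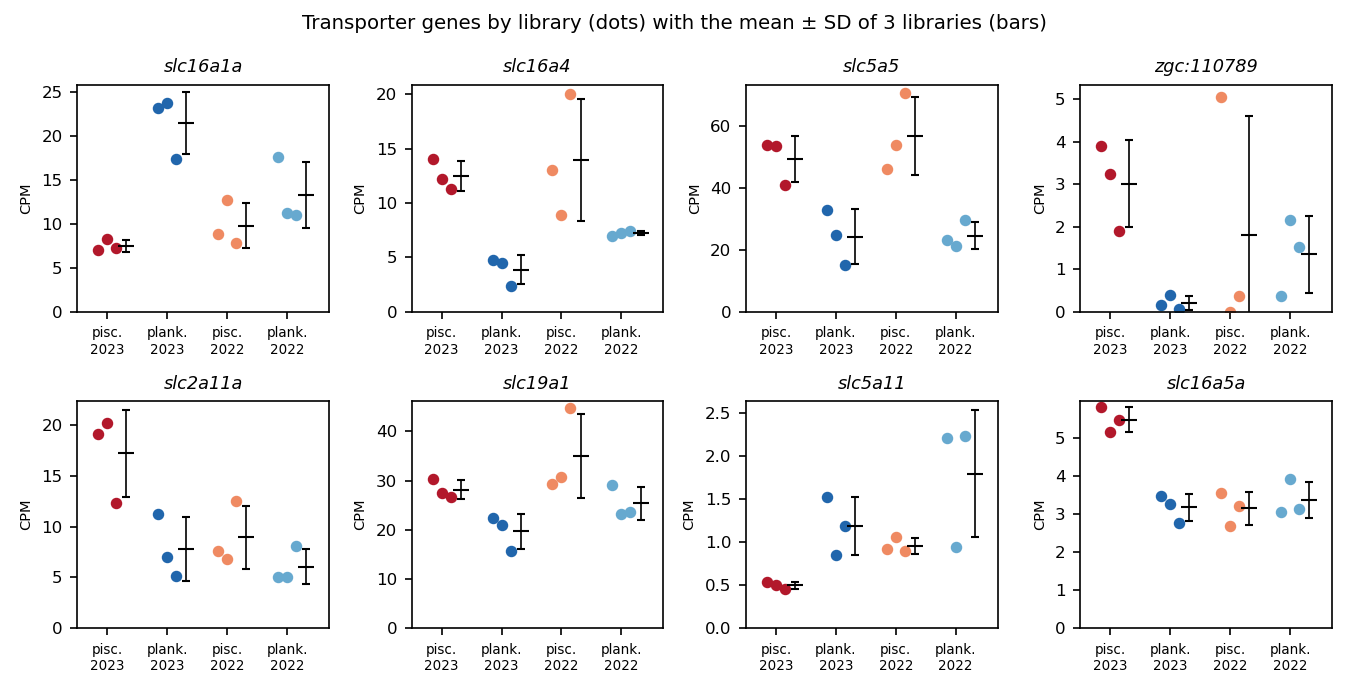
Levels in CPM of 8 transporter genes, with 1 panel for each gene, 1 dot for each library and a bar with the group's mean ± SD (n = 3). The piscivores of 2023 lie below the planktivores of 2023 for slc16a1a and slc5a11, and above them for slc16a4, slc16a5a, slc5a5, zgc:110789, slc2a11a and slc19a1.

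In 2022, none of the 42 transporter genes tested was DT in edgeR, where 0.0533% of all 20624 genes were DT. The genes slc5a5, slc16a4 and slc19a1 were higher in piscivores at an unadjusted p below 0.05 and 0 genes were lower, beside 4.3% and 2.95% of all genes. Groups did not overlap in 4 genes that were higher and 1 that was lower, beside 7.41% and 6.27% of all genes. DESeq2 called 1 of them DT, where 0.505% of all genes were DT. Levels of slc5a5 were 46.1, 53.9 and 70.8 CPM in piscivores and 23.1, 21.2 and 29.7 CPM in planktivores, without overlap. The log2 fold change of slc5a5 was 1.22 ± 0.20 with an adjusted p = 0.117 in edgeR, 6.72e-05 in DESeq2 and 0.0411 with no filter on low counts. It was DT in 2 of 7 alternatives and in none of 6 fits without 1 library (adjusted p 0.104 to 0.492). For slc16a4 the levels were 13, 8.85 and 20 CPM in piscivores and 7.01, 7.26 and 7.41 CPM in planktivores, with a log2 fold change of 0.97 ± 0.28 and an adjusted p = 0.461. For slc19a1 they were 29.4, 30.7 and 44.7 CPM in piscivores and 29.2, 23.3 and 23.6 CPM in planktivores, with 0.48 ± 0.19 and an adjusted p = 0.644. All 3 genes had their highest level of 2022 in piscivore 3.

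Further genes of 2022 did not pass an unadjusted p of 0.05. The aromatic amino acid carrier gene slc16a10 had a log2 fold change of -0.47 ± 0.24 (adjusted p = 0.738), and slc5a11 had 0.917, 1.06 and 0.893 CPM in piscivores and 2.21, 0.946 and 2.24 CPM in planktivores (-0.88 ± 0.40, adjusted p = 0.704). For slc27a1a the log2 fold change was 0.36 ± 0.16 (adjusted p = 0.69), for slc37a4b 0.30 ± 0.14 (adjusted p = 0.704), for slc2a11a 0.58 ± 0.29 (adjusted p = 0.741) and for slc2a9l2, a urate carrier paralog, 0.37 ± 0.26 (adjusted p = 0.826). Piscivore 2 stood apart for the glucose carrier gene slc2a3b, at 137 CPM, against 45.2 and 55.1 CPM in the other piscivores and 43.7, 49.3 and 81.1 CPM in planktivores of 2022. The same library had the highest sum of glia markers, 16853 CPM, of which the myelin genes mbpa and plp1b gave 7064 and 4872 CPM. Its sum of neuron markers, 7143 CPM with nefma at 2595 CPM, was also the highest of the 12 libraries. This library also had 9.41 CPM of telencephalon markers, the lowest of the 12 libraries. Its caudal hox genes summed to 24.8 CPM, against 52.3 CPM in planktivore 4 of 2022. The part of these cells or brain regions in the level of slc2a3b was not tested.

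The phenotype differences of the 2 years rest on different libraries. Of 42 transporter genes tested in both years, 22 were higher in piscivores in both and 8 lower in both, together 71.4%, beside 59.2% of 20435 genes. The 22 include zgc:110789, which was added by name. Across the 42 genes, Pearson's r between the log2 fold changes of 2023 and 2022 was 0.48 and Spearman's rho 0.37, beside 0.23 and 0.25 across all genes. This is a description across genes, which are not independent replicates and which share the libraries of each year. The median absolute log2 fold change of the 42 was 0.32 in 2023 and 0.17 in 2022, beside 0.19 and 0.18 over all genes.

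**Figure D3:**
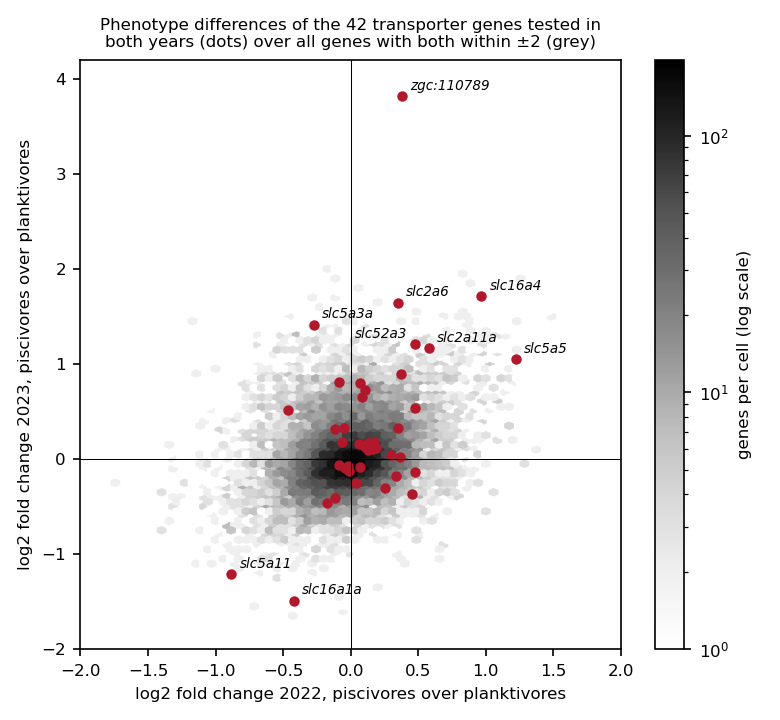
Log2 fold changes of piscivores over planktivores in 2023 (vertical axis) and in 2022 (horizontal axis) for 42 transporter genes (dots) over all genes with both values within ±2 (grey, genes per cell on a log scale). The genes slc5a5 and slc16a4 lie high on both axes, and zgc:110789 at 3.82 in 2023 and 0.38 in 2022.

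Over both years, with the year as an additive term, 2 of 46 transporter genes tested were DT and both were higher in piscivores, where 0.298% of all 21789 genes were DT. The gene slc5a5, at chr11:715196-729564, had a log2 fold change of 1.12 ± 0.18 with an adjusted p = 0.0297, or 2.17-fold higher in piscivores. The gene slc16a4, at chr12:5417304-5470112, had 1.32 ± 0.23 with an adjusted p = 0.0297, or 2.49-fold higher in piscivores. All 6 piscivores stood above all 6 planktivores in both genes. The study lists slc5a5 and slc16a4 as higher in piscivores, from the same libraries. When 1 of the 12 libraries was left out, slc5a5 stayed DT in 6 fits and slc16a4 in 5, and the highest adjusted p, without piscivore 3 of 2022, was 0.0812 for slc5a5 and 0.11 for slc16a4. Their interaction with the year was -0.18 ± 0.37 for slc5a5 (adjusted p = 0.965) and 0.74 ± 0.41 for slc16a4 (adjusted p = 0.815). Just outside the threshold, slc16a1a had -0.98 ± 0.22 (adjusted p = 0.067), slc5a11 -1.06 ± 0.26 (0.0841), slc19a1 0.49 ± 0.13 (0.0964) and slc2a11a 0.86 ± 0.24 (0.118). DESeq2 called slc5a5, slc16a4 and slc5a11 DT, where 0.726% of all genes were DT. Of all 46 genes tested over both years, 33 were higher in piscivores, zgc:110789 among them. Their median log2 fold change over the 46 was 0.12, beside -0.01 over all genes. An unadjusted p below 0.05 was reached by 7 that were higher and 3 that were lower, beside 7.63% and 7.3% of all genes.

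In each year 8 of 9 meninges markers had positive log2 fold changes, as did slc5a5 and slc16a4. In 2023 zic1, the other one, averaged 298 ± 157 CPM in piscivores and 428 ± 85.6 CPM in planktivores. In 2022 it averaged 253 ± 230 CPM in piscivores and 380 ± 121 CPM in planktivores (SD, n = 3 each). Of 10 genes listed, 9 were in the table, and apart from zic1, which is also a neural gene and gave 56.3% of the sum, they summed to 243 to 702 CPM in piscivores and 107 to 210 CPM in planktivores of 2023, and to 252 to 411 CPM in piscivores and 114 to 204 CPM in planktivores of 2022. These sums did not overlap in either year. With zic1 they were 625 to 825 CPM in piscivores and 539 to 619 CPM in planktivores of 2023, and 451 to 764 CPM in piscivores and 358 to 653 CPM in planktivores of 2022, and none of the 9 was at 0. At an unadjusted p below 0.05, 6 of the 9 were higher in piscivores of 2023, beside 8.9% of all genes. In 2022 these were 8 of the 9, beside 4.3% of all genes. The study names tbx18 and osr1 as higher in piscivores, and reports collagen-related transcripts in piscivores of both years. The list of meninges markers was therefore not independent of these data. Of the 702 CPM without zic1 in piscivore 1 of 2023, col1a1a gave 250 CPM and col1a2 224 CPM. Choroid plexus genes, of which 6 of 8 were in the table, summed to 86 to 102 CPM in piscivores and 61 to 87.2 CPM in planktivores of 2023, and to 101 to 137 CPM in piscivores and 79.4 to 90.1 CPM in planktivores of 2022, with ttr, a choroid plexus marker known from mammals, at 0 in all libraries. The gene igf2b gave 45.8% of this sum, and without it the others summed to 36.7 to 44.3 CPM in piscivores and 33 to 50.5 CPM in planktivores of 2023, and to 55.9 to 67.6 CPM in piscivores and 44.7 to 56.3 CPM in planktivores of 2022, so that the phenotypes overlapped in both years. Levels of igf2b itself were 49.3 to 59.8 CPM in piscivores and 23 to 36.7 CPM in planktivores of 2023. In 2022 they were 43.1 to 69 CPM in piscivores and 33.4 to 34.7 CPM in planktivores, so igf2b did not overlap in either year. The gene kl went the other way in 2022 without overlap, at 0.28 to 0.721 CPM in piscivores and 1.04 to 1.09 CPM in planktivores. Of 5 choroid plexus genes tested, 2 were higher and 3 lower in piscivores of 2023, and 4 higher and 1 lower in 2022. At an unadjusted p below 0.05, 1 was higher and 0 lower in 2023, beside 8.9% and 4.78% of all genes. In 2022, 1 was higher and 1 lower, beside 4.3% and 2.95%. The part of meninges or choroid plexus in the levels of slc5a5 and slc16a4 was not tested.

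**Figure D4:**
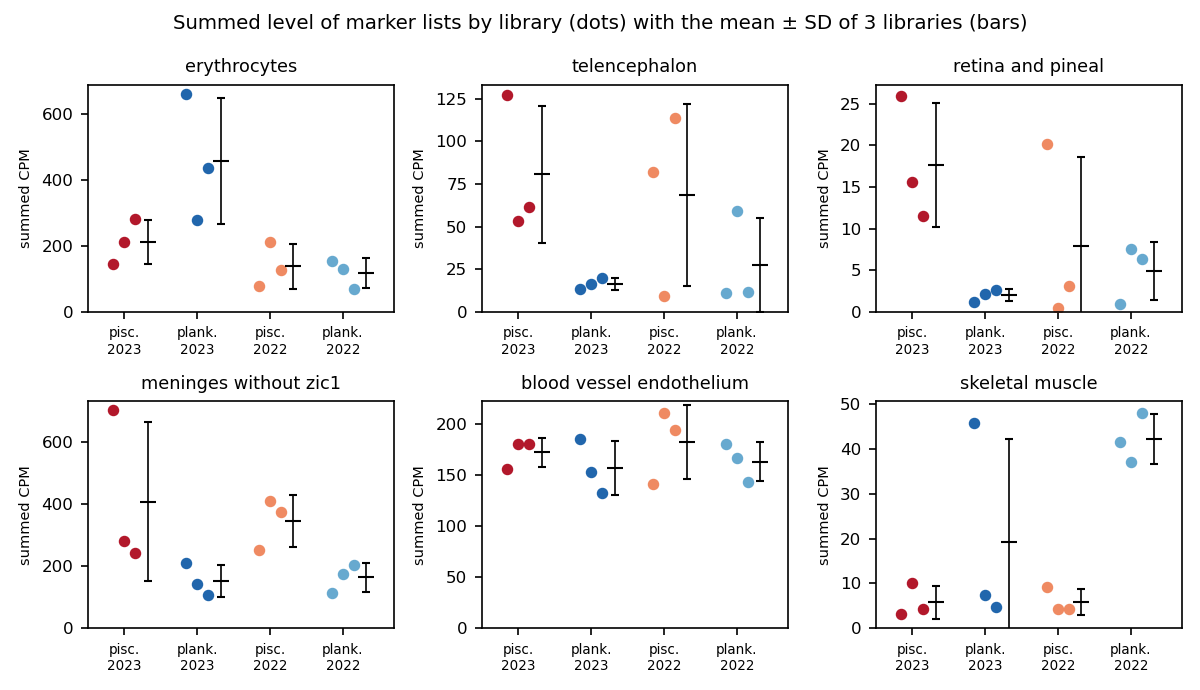
Summed CPM of 6 lists of marker genes, with 1 dot for each library and a bar with the mean ± SD of 3 libraries. Erythrocyte markers reach 659 CPM in planktivores of 2023. Retina and pineal markers, of which rpe65a gave 70.4%, reach 25.9 CPM in piscivores of 2023. Meningeal markers without zic1 are higher in the piscivores of both years, while zic1 itself averaged lower in them.

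No transporter gene had an interaction of phenotype and year that was DT, where 0.0138% of all genes had one. By an unadjusted p below 0.05 there were 3 genes with a more positive difference in 2023 and 1 with a more negative one, beside 3.31% and 3.09% of all genes, and DESeq2 called none of the 46, where it called 0.303% of all genes. These were slc5a3a (1.68 ± 0.52), slc16a10 (0.97 ± 0.35) and slc16a5a (0.89 ± 0.27), and slc16a1a as given above. The interaction of slc16a6b was 0.72 ± 0.33, with an adjusted p = 0.783.

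**Figure D5:**
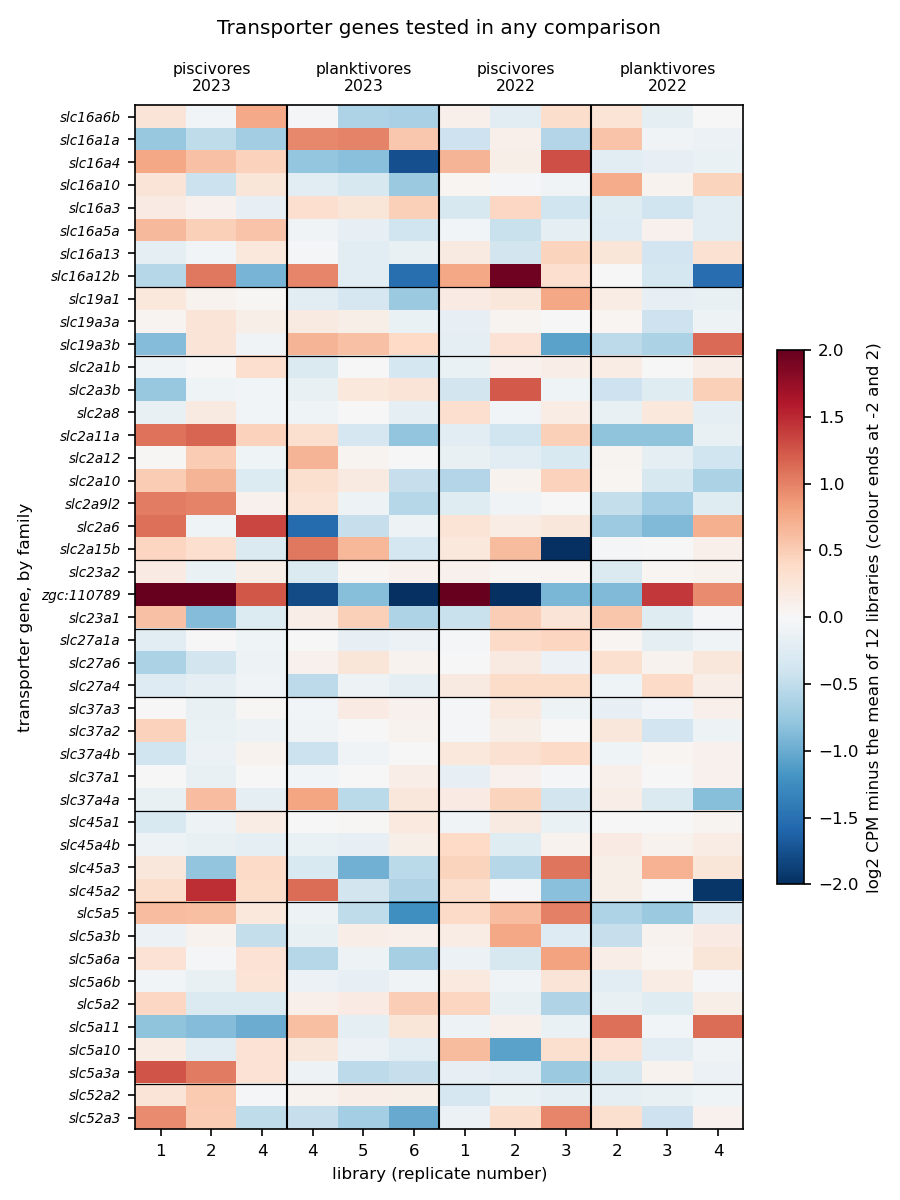
Log2 CPM of the tested transporter genes, 1 of the 46 not shown, less the mean of the 12 libraries, by family (rows) and by library within each group (columns), with the colour ending at -2 and 2. Rows such as slc5a5 and slc16a4 split the piscivores from the planktivores of both years, and zgc:110789 varies most within groups.

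Between years, piscivores of 2023 were compared with piscivores of 2022, and none of 42 transporter genes was DT, where 0.356% of all genes were DT. At an unadjusted p below 0.05, 5 were higher and 6 lower in 2023, beside 7.14% and 10.2% of all genes, and DESeq2 called none, where it called 1.35% of all genes. The years did not overlap in 6 genes that were higher and 4 that were lower in 2023, beside 11.9% and 12.6% of all genes. The fatty acid carrier gene slc27a4 had 19.6 ± 1.39 CPM in 2023 and 27.4 ± 2.05 CPM in 2022 (SD, n = 3 each), without overlap, and a log2 fold change of -0.49 ± 0.12 with an adjusted p = 0.151. All 3 Slc27 genes pointed this way, with -0.38 ± 0.16 for slc27a1a (adjusted p = 0.276) and -0.38 ± 0.16 for slc27a6 (adjusted p = 0.275). Higher in 2023 were slc5a3a at 1.39 ± 0.43 (adjusted p = 0.188), slc2a11a at 0.93 ± 0.30 (0.199), slc2a9l2 at 0.88 ± 0.31 (0.226) and slc16a5a at 0.79 ± 0.21 (0.16). The riboflavin carrier gene slc52a2 had 7.6, 9.16 and 6.29 CPM in 2023 and 5.05, 5.77 and 5.57 CPM in 2022 (0.48 ± 0.20, adjusted p = 0.277).

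In planktivores of 2023 against those of 2022, none of 44 transporter genes was DT, where 0.971% of all genes were DT. At the adjusted p alone 1 gene passed, as did 1.22% of all genes, and DESeq2 called 1 gene, zgc:110789, where it called 2.07% of all genes.

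The aromatic amino acid carrier gene slc16a10 had 3.02, 2.81 and 2.08 CPM in planktivores of 2023 and 5.98, 3.72 and 4.83 CPM in planktivores of 2022 (-0.87 ± 0.26, adjusted p = 0.132). In the same comparison slc16a4 had -0.90 ± 0.27 (adjusted p = 0.134), zgc:110789 -2.66 ± 0.76 (adjusted p = 0.121 in edgeR, 0.0204 in DESeq2) and slc5a6a -0.57 ± 0.18 (adjusted p = 0.146). Among the MCT genes of lactate transport, slc16a1a had 0.69 ± 0.23 (adjusted p = 0.158) and slc16a3 had 4.14, 3.91 and 4.62 CPM in 2023 and 2.78, 2.47 and 2.81 CPM in 2022 (0.65 ± 0.19, adjusted p = 0.13), while LOC116059349, a second gene of the name slc16a1, had -0.59 ± 0.21 (adjusted p = 0.189). At an unadjusted p below 0.05, 2 transporter genes were higher and 8 lower in 2023, beside 8.53% and 11.5% of all genes. The years did not overlap in 2 genes that were higher and 9 that were lower, beside 13.2% and 14.4% of all genes. All 7 erythrocyte genes were higher in planktivores of 2023 than of 2022 at an unadjusted p below 0.05, beside 8.53% of all genes. Of these 7, 2 were DT, where 0.971% of all genes were DT.

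Genes around the carriers were read from lists of fuel and vitamin enzymes. Of 25 glycolysis and lactate genes tested, none was DT between phenotypes in either year in edgeR. DESeq2 called 1 higher in piscivores of 2023 and 1 lower in 2022, where it called 1.4% and 0.505% of all genes. At an unadjusted p below 0.05, 3 were higher and 0 lower in piscivores of 2023, beside 8.9% and 4.78% of all genes. In piscivores of 2022, 1 was higher and 3 lower, beside 4.3% and 2.95% of all genes. The median log2 fold change was -0.04 in 2023 and 0.19 in 2022. The glucokinase gene gck had 4.63, 4.7 and 4.05 CPM in piscivores and 2.4, 2.78 and 2.21 CPM in planktivores of 2023 (0.87 ± 0.20, adjusted p = 0.151), and hexokinase gene hk2 40.5, 30.8 and 37.1 CPM in piscivores and 22.5, 29 and 26.8 CPM in planktivores (0.49 ± 0.15, adjusted p = 0.237). None of 12 genes of ketone and fatty acid use was DT between phenotypes in either year or passed an unadjusted p of 0.05 there. The same held for 4 genes listed beside the carriers, bsg, emb, ip6k1 and cdipt. Of glycogen genes, 1 of 8 tested in 2023 and 0 of 7 in 2022 passed that p, and of 15 vitamin enzyme genes 1 in each year, all of them higher in piscivores and none of them DT.

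Between the years, 2 of these genes were DT in planktivores, where 0.971% of all genes were DT. The mitochondrial folate enzyme gene mthfd2 had 23.1, 17.7 and 19.4 CPM in 2023 and 9.7, 10.1 and 8.66 CPM in 2022, and rose by a log2 fold change of 1.08 ± 0.15 (adjusted p = 0.0312). In piscivores mthfd2 had 16.1, 16.1 and 16.6 CPM in 2023 and 12.1, 12.4 and 7.93 CPM in 2022 (0.59 ± 0.19, adjusted p = 0.197). The inositol hexakisphosphate kinase gene ip6k1 had 3.31, 4.87 and 4.29 CPM in 2023 and 8.52, 11.5 and 11.2 CPM in 2022, and fell with -1.31 ± 0.20 (adjusted p = 0.0364). In piscivores ip6k1 had 4.77, 5.02 and 6.95 CPM in 2023 and 9.11, 9.86 and 9.77 CPM in 2022 (-0.78 ± 0.19, adjusted p = 0.141), and the interaction of phenotype and year was -0.49 ± 0.24 for mthfd2 (adjusted p = 0.789) and 0.54 ± 0.28 for ip6k1 (adjusted p = 0.798). The gene of the MCT chaperone basigin, bsg, had 885, 757 and 667 CPM in planktivores of 2023 and 436, 569 and 545 CPM in planktivores of 2022, with 0.58 ± 0.18 and an adjusted p = 0.136. In piscivores of the same years it had 0.35 ± 0.14 (adjusted p = 0.27), and between phenotypes 0.01 ± 0.16 in 2023 and 0.22 ± 0.18 in 2022.

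There were 11 further rows of the table that carry other symbols but have names of these families in the study's tables. None of them was DT by edgeR in any comparison, and they were kept apart from the genes chosen by symbol. In the phenotype comparison of 2023 the nearest to the threshold were LOC116061615, named slc16a12b there, and si:dkey-106n21.1, named slc23a2 there. The count table nevertheless has separate rows with both of these symbols. The study lists LOC116061615 and si:dkey-106n21.1 as higher in piscivores, from the same libraries, so their differences in 2023 were not a separate finding. Levels of LOC116061615 were 2.12, 1.34 and 1.64 CPM in piscivores and 0.456, 0.44 and 0.264 CPM in planktivores of 2023 (2.16 ± 0.36, adjusted p = 0.0924 in edgeR, 0.00113 in DESeq2). Levels of si:dkey-106n21.1 were 40.7, 41.6 and 41.3 CPM in piscivores and 22.4, 23 and 13.5 CPM in planktivores (1.09 ± 0.20, adjusted p = 0.0969 in edgeR, 0.000164 in DESeq2). Neither overlapped between the groups of 2023. In 2022 their log2 fold changes were 0.30 ± 0.35 and 0.50 ± 0.30.

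For LOC116044320, which the study names slc16a6a, the levels were 26.1, 28.6 and 22.3 CPM in piscivores and 17.2, 13.8 and 10.5 CPM in planktivores of 2023, and 16.5, 12.9 and 22 CPM in piscivores and 12.6, 9.83 and 9.49 CPM in planktivores of 2022. It did not overlap in either year, and over both years its log2 fold change was 0.79 ± 0.15 with an adjusted p = 0.0424, under the fold threshold. Both genes that carry the name slc16a6 thus had positive log2 fold changes in 2023, and slc16a6b had 0.07 ± 0.19 in 2022 (adjusted p = 0.964). The row LOC116055836, named slc16a9a, had -0.42 ± 0.14 in 2022 (adjusted p = 0.552) and 0.42 ± 0.24 in 2023 (adjusted p = 0.486), with an interaction of 0.82 ± 0.30 (adjusted p = 0.672). The gene LOC116059349, which the study names slc16a1b, had 0.33 ± 0.25 in 2023 (adjusted p = 0.607) and 0.54 ± 0.21 in 2022 (adjusted p = 0.615), while slc16a1a was negative in both years. The choline carrier rows LOC116067786 and LOC116037806 had no adjusted p under 0.5 between phenotypes, and LOC116067786 stood at 34.7 CPM in piscivore 2 of 2022, against 3.11 to 12.7 CPM elsewhere. The other 4 rows, LOC116043489, LOC116054642, LOC116040965 and LOC116047381, had log2 fold changes between -0.66 and 0.32 in 2023 and between -0.93 and 0.32 in 2022.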

How the data were processed

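The analysis covered whole brain libraries of 12 fish in 4 groups, taken from the sample labels, and the genes of the transporter families and the lists were chosen with earlier results of these data known. According to the methods of the study, the reads were trimmed (Trimmomatic) and aligned to SLUC_FBN_1.2 (STAR 2.5.2), and the authors deposited featureCounts counts of uniquely mapped exonic reads, neither normalized nor pooled. The strand setting is not given in the sources used here. The deposited TPM values equal the authors' counts over gene length scaled to a common total. Tables that repeat the libraries of 2022 were not used. Excluded were 24 rows without a gene name, which held between 0.589% and 3.175% of a library's total.

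Counts were tested in R 4.3.3 with edgeR 4.0.16 (filterByExpr, TMM, robust quasi-likelihood F test) for each comparison on its own libraries. Standard errors are the log2 fold change over the square root of F. CPM used TMM factors, and log2 CPM a prior count of 2. Genes named were those called, those with the smallest unadjusted p (10 in each phenotype comparison within a year, 6 in the other comparisons), the most abundant of each family, carriers of known role in the brain and rows named otherwise in the study; exceptions are stated, and 1 gene that the rule names is not reported here. Coordinates and exon overlaps are those of the deposited tables. The procedure was tested on simulated data. Alternatives were DESeq2 1.42.0 and, in edgeR, its size factors, a filter of 1 count in total or of 10 counts per library, removal of the 20 most counted genes, a joint model of 12 libraries, a call without the fold threshold, blocking by replicate number and omission of single libraries. With 3 fish per group, an exact permutation test of a single value could not go below 0.1. Plots were drawn with matplotlib 3.10.9 (Python 3.11.15), from tables computed in pandas 2.3.3 and numpy 2.4.6.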

Additional observations from a re-analysis of the deposited data

How the results depend on the processing

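Counts of transporter genes called were as follows where they moved. For phenotypes in 2023 (1 gene), DESeq2 called 5, no filter beyond 1 count 3, 1 fit to all 12 libraries 0, and the fits without 1 library 0 each. For phenotypes in 2022 (0 genes), DESeq2 and no filter each called 1. For planktivores between years (0 genes), DESeq2 called 1 and the adjusted p alone 1. Over both years (2 genes), the fits without 1 library called 0 to 3, with 0 without piscivore 3 or planktivore 2 or 3 of 2022, or piscivore 1 or 2 or planktivore 5 of 2023, and 1 without planktivore 4 of 2022. With the replicate block, 0 were called over both years. Replicate numbers name different fish, and the correlation of deviations between libraries of 1 number was -0.31 to 0.14, so the numbers share no more than a name. No paired fit was made for 2023 phenotypes or planktivores between years, which share 1 number.

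With the replicate block the log2 fold change of slc16a4 between years in piscivores was 0.29 and that of slc5a5 0.12, and that of zgc:110789 was -2.92 between phenotypes in 2022 and -0.53 over both years, each of opposite sign to the value without it. Without the 20 most counted genes slc5a5 in planktivores between years was at 0.00. Without 1 library, the log2 fold change of slc16a4 in piscivores between years ranged between -0.43 and 0.19, that of slc5a5 in planktivores between years between -0.30 and 0.23, the interaction of slc5a5 between -0.45 and 0.10, and zgc:110789 between phenotypes in 2022 between -2.83 and 0.95. The cause was not tested. Of the remaining values, 450 kept their direction and side of the threshold under the alternatives, 13 passed it and 3 no longer did, and in the fits without 1 library 573 kept both, 1 passed it and 19 no longer did.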
